A study of Mus musculus with 18 samples.

Results

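Acyl-CoA thioesterases are the enzymes that split an acyl-CoA into a free acid and coenzyme A. The 7 genes Acot1, Acot2, Acot3, Acot4, Acot8, Acot12 and Acot13 were taken by their symbols from a liver RNA sequencing table of 19057 gene rows, and all 7 were found and passed the filter on low values. The table covers 18 libraries from livers of ICR male mice sampled at 10 weeks of age, 3 libraries in each of 6 groups. Con mice received saline. STZ mice received a single injection of streptozotocin, a toxin of the insulin-making beta cells that serves as a model of type 1 diabetes (T1D). A10-FMT and Con-FMT mice received the same injection and then, daily by mouth for 2 weeks, the intestinal content of donors, a fecal microbiota transplant (FMT). The A10-FMT donors had been dosed with alginate oligosaccharide (AOS) at 10 mg/kg and the Con-FMT donors were controls, and the donor content was pooled within each donor group. The labels name a further pair of groups, AOS (10 mg/kg, no STZ) and STZ+AOS (STZ and AOS at 10 mg/kg), which the methods of the study do not describe. The sources do not say that the libraries of a group came from separate mice, so each library is called a mouse here and the p-values measure only the spread between these libraries.

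Fatty acids enter metabolism as acyl-CoA esters, and thioesterases work against the acyl-CoA synthetases that make these esters, so that together they set how much acyl-CoA and free coenzyme A a compartment holds. In mouse liver each compartment has its own enzymes. Acot1 acts in the cytosol and Acot2 in the mitochondrial matrix, both on long-chain acyl-CoA. Acot3, Acot4 and Acot8 act in peroxisomes, where Acot4 prefers short dicarboxylic esters such as succinyl-CoA and Acot8 has a broad range. Acot12 splits acetyl-CoA in the cytosol, and Acot13 (also called Them2) is a small enzyme for long-chain acyl-CoA found at mitochondria. Several of these genes are textbook targets of PPAR-alpha, the nuclear receptor that is active in the liver when fatty acids are burned, as in fasting and in insulin deficiency.

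The values are RPKM, read numbers divided by transcript length and by library size, so levels can be set side by side between genes. No read numbers are in the table. Low values of genes with 1 annotated transcript clustered, once multiplied by the transcript length in kb, at 0.0815 to 0.108 (35 to 57 values per library). As the worth of 1 read this would mean roughly 9260000 to 12300000 mapped reads per library. The lowest estimate was that of STZ mouse 3. All STZ libraries (9260000 to 11400000) lay below all Con libraries (12000000 to 12200000), and the part of depth in the results was not tested. Alb, the hepatocyte marker, lay between 24370 and 37720 RPKM in all 18 libraries, as the liver label requires. Markers of fat cells summed to at most 0.38 RPKM and markers of muscle to at most 0.48 RPKM in any library. The median gene was higher in STZ than in Con by 0.21 on the log2 scale, and this shift was -0.0097 after median-ratio scaling of the libraries, so changes are given as deposited and their values under scaling are named where they change a call or a direction. Mouse 3 of STZ and mouse 3 of STZ+AOS stood apart within the thioesterases themselves, with the highest Acot1 and the lowest Acot2, Acot3, Acot4 and Acot13 of their groups. For some of the tests that rest on them, the values without them are given as well.

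The genes fall at 4 places in the genome (GRCm38, GENCODE M21). Acot2 (chr12:83987861-83993873), Acot1 (chr12:84009490-84018371), Acot4 (chr12:84038379-84048601) and Acot3 (chr12:84052144-84060402) follow each other on the plus strand of chromosome 12, with Acot5 and Acot6 next in the row. Acot12 (chr13:91741512-91786148, plus strand) and Acot13 (chr13:24817948-24831540, minus strand) lie far apart on chromosome 13. Acot8 (chr2:164792765-164804882, minus strand) lies on chromosome 2. The chromosome 12 genes are close copies of each other, and of the 35-base stretches in the coding transcripts of Acot1, 27.5% also occur in Acot2, while 28.5% of those in Acot2 occur in Acot1. Counting all other Acot genes, 36.5% of Acot1, 32.9% of Acot2, 10.4% of Acot3 and 5.59% of Acot4 were shared, and 0% of Acot8, Acot12 and Acot13. The length of 35 bases was a setting of this count, so these are shares of sequence and not of reads. The SOAPaligner setting in the methods of the study reports all repeat hits of a read, but the submitters' notes name another aligner, and neither says how a read with several matches was then counted, so the split of reads between Acot1 and Acot2 is uncertain, and their sum was tested as well.

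In the livers of STZ mice the thioesterase genes were higher than in Con, most of all those of the chromosome 12 cluster. Acot3 rose from a mean of 0.317 to one of 45.2 RPKM, and Acot1, Acot4 and Acot2 rose to 5.14, 5.56 and 8.26 times the Con mean. Acot12 rose to 2.74 times and Acot13 to 1.86 times. Acot8 stood at 1.19 times the Con mean and did not pass the test. In all, 6 of the 7 genes rose and 0 fell at an adjusted p under 0.05 (limma, Benjamini-Hochberg), where 38.5% of the 10602 genes tested were called and 33.0% were called higher. Under median-ratio scaling 5 of the 7 rose, and over all genes 1480 were called higher (14.0%) and 1391 lower, against 3502 and 585 as deposited. The median log2 difference was 2.15 over the 7 genes and 0.21 over all genes tested. In whole liver, fewer cells of a type and less RNA per cell cannot be told apart.

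**Figure D1:**
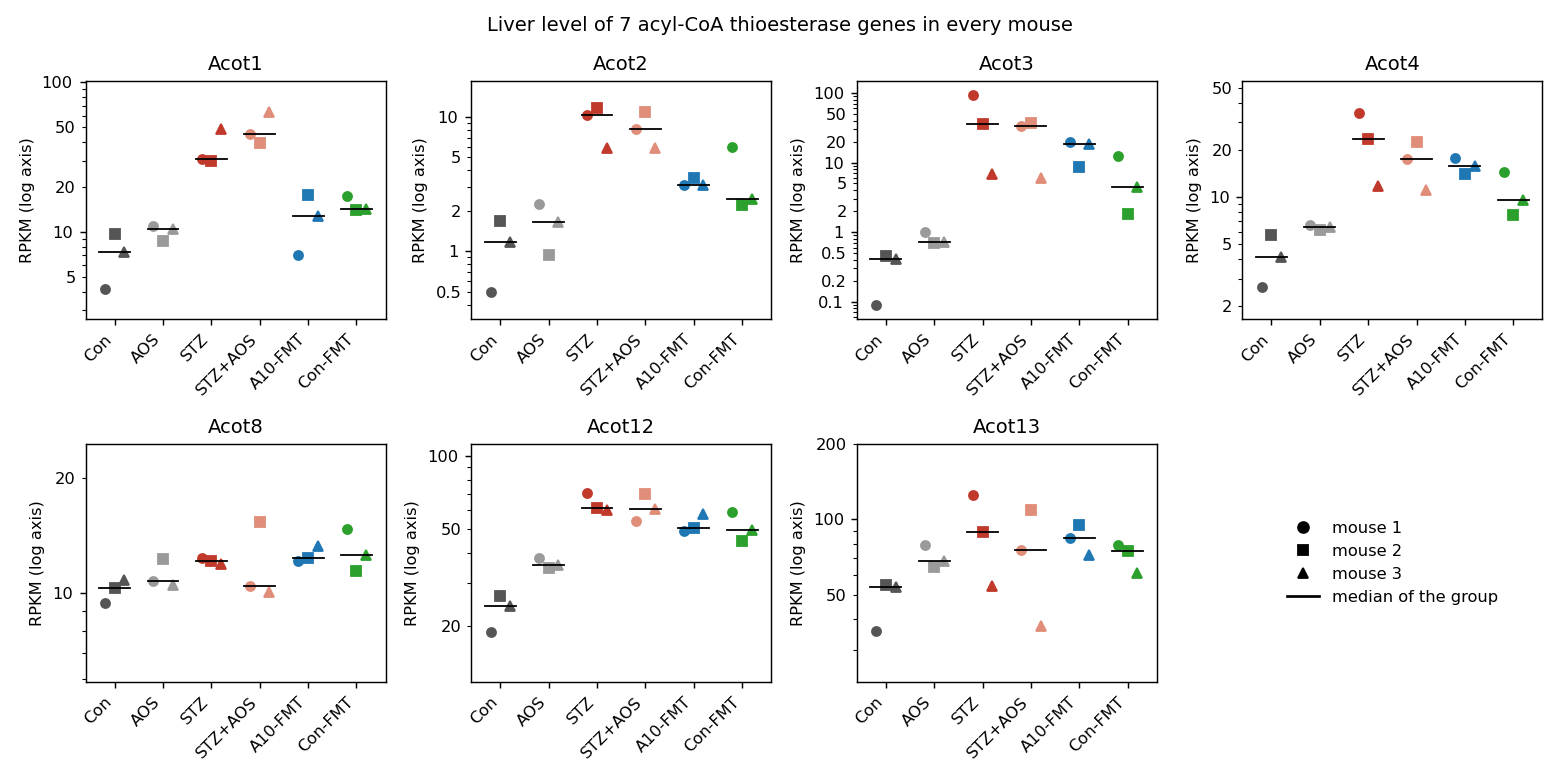
Level of each of the 7 genes in every library, in RPKM on a log axis, by group (circle, square and triangle for mice 1, 2 and 3, black line for the group median). Acot1, Acot2, Acot3, Acot4 and Acot12 lie higher in all STZ mice than in all Con mice, while Acot13 of STZ mouse 3 (53.98 RPKM) falls within the Con range (35.97 to 54.71 RPKM).

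Acot1, the cytosolic enzyme that is known to be induced by fasting and by PPAR-alpha agonists, stood at 4.19, 9.69 and 7.34 RPKM in Con mice 1, 2 and 3 and at 30.63, 29.97 and 48.5 RPKM in STZ mice. The groups were far apart, and the STZ mouse with the highest Acot1 was mouse 3. The means were 7.07 ± 2.76 and 36.4 ± 10.5 RPKM (SD, n = 3), a log2 difference of 2.24 ± 0.32 (SE, limma adjusted p = 0.000814). Here and below a log2 difference is the difference between group means of log2(RPKM + 1), given with its SE, errors of RPKM means are SD over 3 mice, and a second value in brackets is the adjusted p. Acot12, the cytosolic acetyl-CoA hydrolase, stood at 18.91, 26.67 and 24.14 RPKM in Con and at 70.16, 61.01 and 59.75 RPKM in STZ. It had the smallest standard error of the genes that rose, with no overlap and a log2 difference of 1.43 ± 0.14 (limma adjusted p = 0.000223).

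Of the mitochondrial enzymes, Acot2 stood at 0.5, 1.68 and 1.17 RPKM in Con and at 10.27, 11.58 and 5.84 RPKM in STZ. All STZ mice were above all Con mice and mouse 3 was the lowest of STZ, with a log2 difference of 2.27 ± 0.31 (limma adjusted p = 0.000703). When Acot1 and Acot2 were summed, the sum differed by 2.40 (adjusted p = 0.000466, limma). Acot13 was the most abundant of the 7 genes in Con, at 35.97, 54.71 and 53.58 RPKM, and stood at 125.15, 89.3 and 53.98 RPKM in STZ. Its groups overlapped through STZ mouse 3, and its log2 difference of 0.83 ± 0.26 passed the test only narrowly (limma adjusted p = 0.03). The Acot13 call was lost under each of the 3 scalings of the libraries (log2 difference 0.56 to 0.59, limma adjusted p of 0.0796 to 0.105), with no filter (0.0752), with only the groups compared in the fit (0.0854), with all 6 groups in it (0.0571), and on leaving out Con mouse 1 (0.119), STZ mouse 1 (0.105) or STZ mouse 2 (0.0858), while without STZ mouse 3 the difference was 1.14 (0.00161).

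The peroxisomal enzymes did not move as a block. Acot3 stood at 0.09, 0.45 and 0.41 RPKM in Con, and at 92.65, 36.14 and 6.79 RPKM in STZ. The STZ mice differed among themselves by more than 10 times, yet the lowest of them was far above every Con mouse. The Con values come from few reads, by the estimate above about 2 to 4 in mouse 1 and 8 to 19 in mouse 2, so the ratio of the means, 143, is known only roughly, and the log2 difference of 4.52 ± 0.77 (limma adjusted p = 0.0018) understates it. Leaving out STZ mouse 1 gave 3.70 and leaving out STZ mouse 3 gave 5.50 for Acot3. Acot4 stood at 2.65, 5.74 and 4.16 RPKM in Con and at 34.48, 23.6 and 11.73 RPKM in STZ, again with no overlap and, as for Acot3, with mouse 1 the highest and mouse 3 the lowest of STZ (log2 difference 2.15 ± 0.34, limma adjusted p = 0.00129). Acot8 stood at 9.42, 10.34 and 10.83 RPKM in Con and at 12.37, 12.17 and 11.9 RPKM in STZ. The Acot8 groups did not overlap but the step was small (0.23 ± 0.095, limma adjusted p = 0.0708), and the 3 scalings gave -0.0113 to -0.0347, the other direction. Groups did not overlap for 6 of the 7 genes and for 47.7% of all genes tested.

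**Figure D2:**
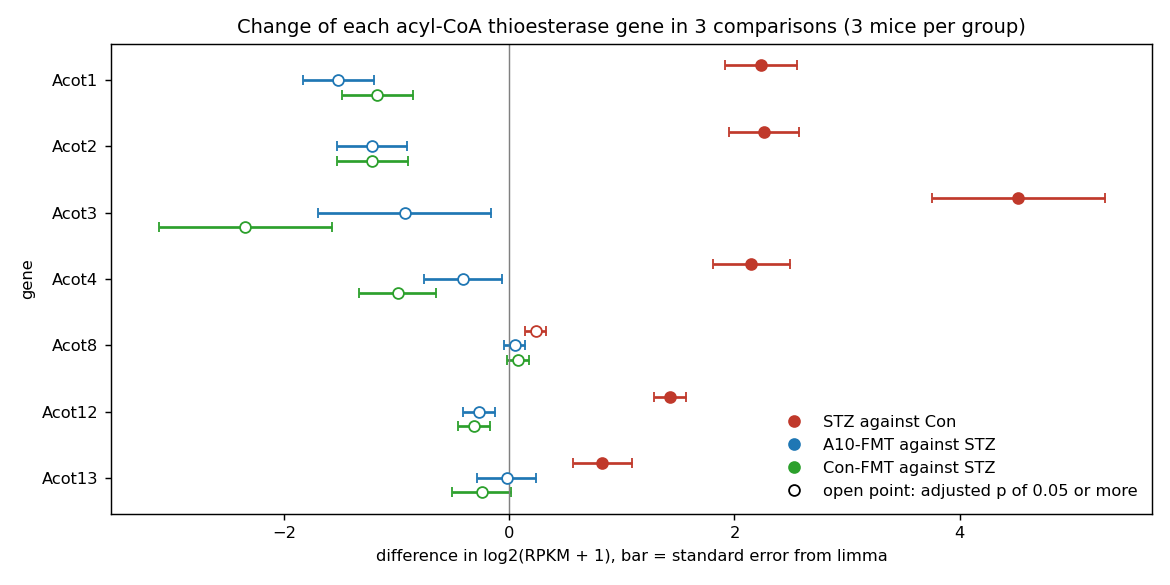
Difference in log2(RPKM + 1) of each gene for STZ against Con (red), A10-FMT against STZ (blue) and Con-FMT against STZ (green), with the standard error from limma as the bar and open points where the adjusted p was 0.05 or more. The red points lie between 0.23 for Acot8, which fell below 0 under scaling, and 4.52 for Acot3, and all blue and green points are open.

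Of the 6 genes that rose, 5 (Acot1, Acot2, Acot3, Acot4 and Acot12) were also called under every alternative that tested them, with 0.0118 as their highest adjusted p (limma). Few markers of other liver cells passed the test in STZ against Con, where 33.0% of all genes were called higher. The 6 Kupffer cell and macrophage markers summed to 57.8 to 86.1 RPKM in Con and to 86.5 to 194 RPKM in STZ, with 1 of 6 called higher, and the 5 stellate cell markers summed to 70.4 to 81.9 and to 106 to 130 RPKM, with 1 of 5 called higher. These 2 sums lay higher in every STZ mouse than in every Con mouse. The stellate sum was mostly that of Dcn, at 61.37 to 142.2 RPKM over the 18 libraries. Lrat, Reln, Col1a1 and Col3a1 reached at most 6.17 RPKM each, so the sum does not show that the stellate markers rose together. The sum of the 5 lymphocyte markers lay lower in every STZ mouse, at 1.55 to 2.39 RPKM against 2.7 to 3.05 RPKM in Con. Only 1 of the 5 was tested, and it was not called. The sums of the endothelial (2 of 5 called higher), cholangiocyte (1 of 3 tested called lower) and erythroid markers (1 of 4 tested called lower) overlapped between the groups. Of the 6 hepatocyte markers 1 was called higher and 3 lower, where 585 of the 10602 genes tested were called lower. Their sum, mostly that of Alb (24370 to 37720 RPKM over the 18 libraries), was 36790 to 54690 RPKM in Con and 33430 to 46400 RPKM in STZ. The part of these markers in the thioesterase results was not tested.

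The make-up of the family differed between Con and STZ livers. The 7 genes summed to 71.7, 109 and 101.6 RPKM in Con and to 376, 264 and 198.5 RPKM in STZ. Acot13 made up 50.1% to 52.7% of the sum in Con but 27.2% to 33.9% in STZ, while the share of Acot12 overlapped, at 23.8% to 26.4% in Con and 18.7% to 30.1% in STZ. Acot3 took 0.125% to 0.412% of the sum in Con and 24.7%, 13.7% and 3.42% in STZ mice 1, 2 and 3. STZ mouse 3 filled its share with Acot1 instead, at 24.4% against 8.15% and 11.4% in the other STZ mice.

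**Figure D3:**
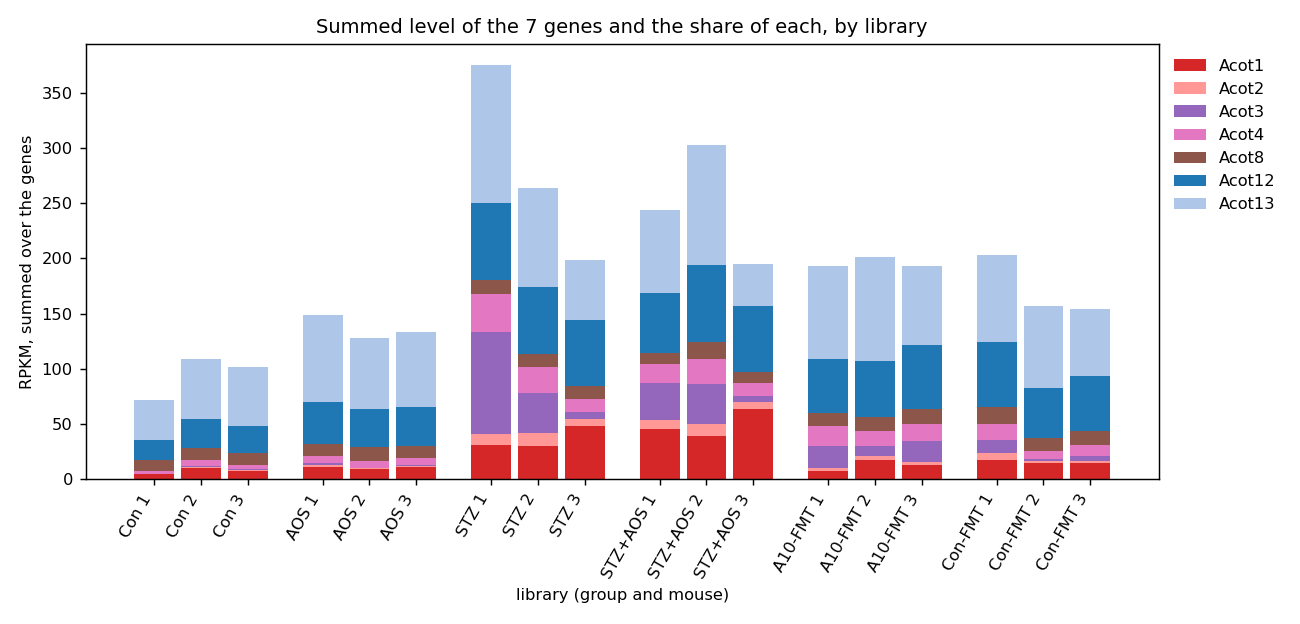
Summed RPKM of the 7 genes in each library, with the part of each gene as a coloured segment (axis from 0). The Con bars reach 71.7 to 109 RPKM and the STZ bars 198.5 to 376 RPKM, and the purple Acot3 segment is large in STZ mice 1 and 2 and small in mouse 3 of STZ and of STZ+AOS.

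The contrast between Acot1 and Acot3 ran through single mice. The level of Acot1 was 17.9 to 46.6 times that of Acot3 in Con, but 0.331, 0.829 and 7.14 times in STZ mice 1, 2 and 3 and 1.37, 1.08 and 10.7 times in STZ+AOS mice. So Acot3 was the higher of the pair in STZ mice 1 and 2, and Acot1 in mouse 3. In A10-FMT the ratios were 0.354, 2.08 and 0.683, with Acot3 the higher in mice 1 and 3. After each group's mean was removed, the log2 levels of Acot3 and Acot4 over the 18 libraries correlated with r = 0.923, those of Acot4 and Acot13 with r = 0.828, and those of Acot1 and Acot3 with r = -0.432. These values are descriptions, since a group holds 3 libraries and the 4 cluster genes share sequence. Acot3 and Acot4 thus varied together from mouse to mouse, while r between Acot1 and Acot3 was below 0. No r was computed without mouse 3 of STZ and of STZ+AOS, each the highest in Acot1 and the lowest in Acot3 of its group. In A10-FMT mouse 2 was the highest in Acot1 and the lowest in Acot3. In Con, AOS and Con-FMT the same mouse was the highest in both genes, so the value below 0 does not describe every group.

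**Figure D4:**
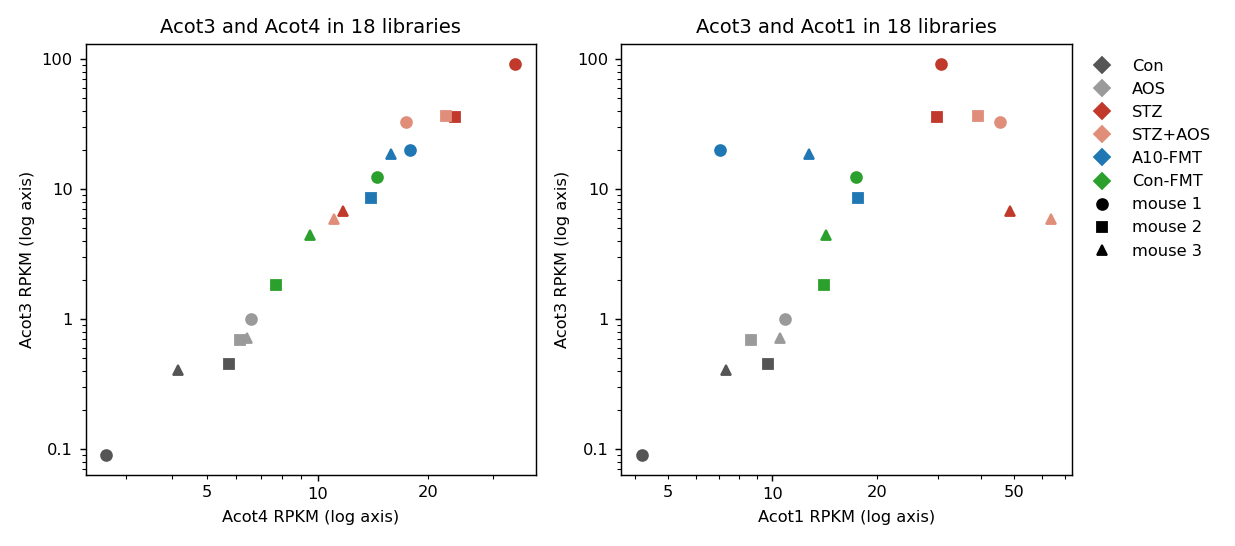
Acot3 against Acot4 (left) and against Acot1 (right) in all 18 libraries, in RPKM on log axes, with a colour for each group and a shape for each mouse number. With Acot4 the points form 1 rising band from Con mouse 1 (2.65 and 0.09 RPKM) to STZ mouse 1 (34.48 and 92.65 RPKM), and with Acot1 the STZ and STZ+AOS points of mouse 3 lie at the far right with low Acot3.

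Since the 4 cluster genes were all called higher in STZ, their start regions are shown here beside those of Acot12. The sequences are from RefSeq (GRCm38.p6), 250 bases before and 50 after the annotated start, 5′ to 3′ on the gene's strand, and 6 of the 7 genes had one, Acot13 having none. Capitals mark TGACCT, which is AGGTCA as read on the other strand. AGGTCA is the core site that nuclear receptors such as PPAR-alpha recognise. Acot4, Acot3 and Acot12, at chr12:84038129-84038428, chr12:84051894-84052193 and chr13:91741271-91741570, are the 3 that hold it.
Acot4: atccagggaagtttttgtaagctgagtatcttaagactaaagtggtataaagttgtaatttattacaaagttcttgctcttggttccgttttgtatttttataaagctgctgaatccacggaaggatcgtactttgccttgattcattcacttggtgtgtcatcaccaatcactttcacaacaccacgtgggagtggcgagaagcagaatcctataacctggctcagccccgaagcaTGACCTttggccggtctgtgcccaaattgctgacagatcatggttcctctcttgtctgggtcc
Acot3: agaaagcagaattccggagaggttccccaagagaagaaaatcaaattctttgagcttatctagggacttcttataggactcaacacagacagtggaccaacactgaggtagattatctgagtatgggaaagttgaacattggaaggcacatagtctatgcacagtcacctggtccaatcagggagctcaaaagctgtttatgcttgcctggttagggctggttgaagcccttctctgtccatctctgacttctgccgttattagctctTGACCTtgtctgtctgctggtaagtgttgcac
Acot12: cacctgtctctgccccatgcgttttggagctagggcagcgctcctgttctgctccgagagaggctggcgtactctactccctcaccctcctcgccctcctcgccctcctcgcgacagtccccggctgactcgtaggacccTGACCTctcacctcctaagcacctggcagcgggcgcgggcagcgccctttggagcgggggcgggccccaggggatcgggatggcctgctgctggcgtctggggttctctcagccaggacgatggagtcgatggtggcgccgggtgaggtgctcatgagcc
The start regions of Acot2 and Acot1, at chr12:83987611-83987910 and chr12:84009252-84009551, are shown because these genes also rose and hold no such letters in this window.
Acot2: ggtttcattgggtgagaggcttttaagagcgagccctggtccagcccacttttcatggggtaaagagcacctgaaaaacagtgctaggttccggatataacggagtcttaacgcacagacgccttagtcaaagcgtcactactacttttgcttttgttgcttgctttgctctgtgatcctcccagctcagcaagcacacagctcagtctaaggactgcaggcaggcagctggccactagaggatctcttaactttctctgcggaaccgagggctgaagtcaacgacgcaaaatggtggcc
Acot1: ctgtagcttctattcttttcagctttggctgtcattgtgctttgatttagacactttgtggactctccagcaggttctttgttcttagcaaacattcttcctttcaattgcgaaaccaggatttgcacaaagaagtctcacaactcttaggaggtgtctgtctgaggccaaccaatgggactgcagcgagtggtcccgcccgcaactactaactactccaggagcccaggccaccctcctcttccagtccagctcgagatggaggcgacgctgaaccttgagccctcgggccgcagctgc

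The core site, searched as AGGTCA on both strands, began 13 bases before the start of Acot4, 110 bases before the start of Acot12 and, at the first of the annotated starts of Acot3, at base 19 after it. It was in 16.3% of the 32851 promoters of this length. A direct repeat of that site, searched as AGGNCA repeated with 1 base of any kind between, on both strands, was in 0 of the 6 and in 0.381% of all promoters. Acot8, which did not pass the test, held neither. The core site was thus found both in genes that rose by much (Acot3, Acot4) and by less (Acot12), and it was not found in the windows of Acot1 and Acot2.

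Around the cluster on chromosome 12 the neighbours that could be tested differed by at most 0.61. Within 250 kb of the cluster the table held 10 other genes, of which 3 passed the filter on low values. Numb, 194 kb before the start of Acot2, differed by 0.21 (limma adjusted p = 0.143) and Riox1, 37.2 kb before it, by 0.04 (0.767), so neither passed the test. Ptgr2, a prostaglandin reductase 297 kb after the start of Acot2, rose by 0.61 ± 0.12 (limma adjusted p = 0.00312). Acot5 and Acot6, the next copies in the row, are peroxisomal relatives that stayed under the filter. Acot5 was listed at 0 in all Con mice and at 2.4, 0.64 and 0.26 RPKM in STZ mice 1, 2 and 3, with mouse 1 the highest as for Acot3 and Acot4, and no test was made. Of the 35-base stretches of Acot5, 28.1% also occur in other Acot genes and 18.1% in Acot3. Reads of Acot5 and reads of its copies therefore cannot be told apart in these low values. Acot6 stood at 0.18 to 0.44 RPKM in Con and 0.42 to 0.72 RPKM in STZ.

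**Figure D5:**
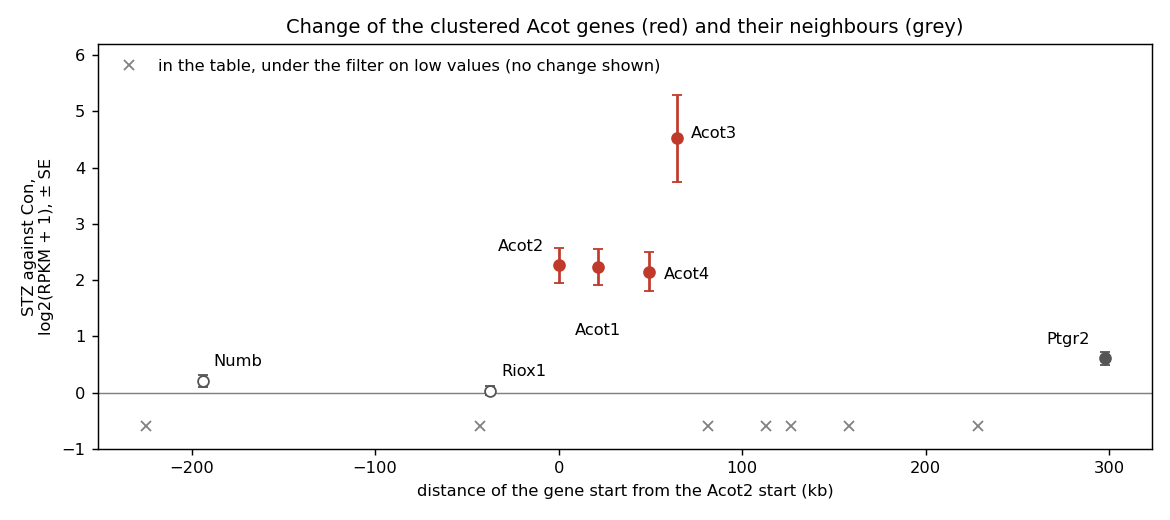
Difference in log2(RPKM + 1) between STZ and Con, with its standard error, against the distance of each gene's start from that of Acot2 in kb, for the clustered Acot genes (red) and the neighbours (grey, open where the adjusted p was 0.05 or more). The 4 red points lie between 2.15 and 4.52 and the 3 grey ones between 0.04 and 0.61, and crosses mark genes under the filter, drawn at an arbitrary height.

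Other genes of acyl-CoA metabolism were counted as lists, each to be read against the 38.5% of all genes called and the 33.0% called higher in STZ against Con, with a median of 0.21. The lists and their genes were not tested under scaling. Under median-ratio scaling 27.1% of all genes were called and 14% were called higher. Of 7 other thioesterases and relatives tested, 2 rose and 0 fell, a share of 28.6% that is under the one of all genes, and the median log2 difference was 0.46. The 2 were Them6 (0.54, limma adjusted p = 0.0243) and Them4, a mitochondrial thioesterase (0.46, 0.0134). Acot7, a cytosolic long-chain enzyme best known from brain, stood at 8.24 to 12.01 RPKM in Con and 10.69 to 19.53 RPKM in STZ and did not pass the test (0.52, 0.0669). Acot11, known from brown fat as Them1, lay under the filter and is named because of its values: 0.76, 1.17 and 0.96 RPKM in Con and 0.06, 0.2 and 0.13 RPKM in STZ, opposite in direction to the 6 genes called. Acot11 stood at 0.59, 0.27 and 0.45 RPKM in AOS, at 0.74, 0.06 and 0.09 RPKM in STZ+AOS, at 0.28, 0.07 and 0.42 RPKM in A10-FMT and at 0.16, 0.12 and 0.23 RPKM in Con-FMT. STZ+AOS mouse 1 was thus close to the Con range and A10-FMT mice 1 and 3 were above every STZ mouse.

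Of 15 acyl-CoA synthetases tested, the enzymes that make acyl-CoA, 7 rose and 1 fell in STZ (median 0.43), so that 53.3% were called against 38.5% of all genes. Slc27a2, which activates very long chains, rose from 244 ± 6.53 to 569 ± 96.7 RPKM (log2 difference 1.20, limma adjusted p = 0.000751), Slc27a5, which activates bile acids, rose by 0.75 (0.00361), Acss3 rose by 1.97 (0.000424) and Acsm3, for medium chains, by 0.86 (0.00325). Acss2, which makes acetyl-CoA from acetate in the cytosol and so runs opposite to Acot12, fell by 1.24 on the log2 scale (limma adjusted p = 0.0165), from 97.8 ± 47.3 to 39.8 ± 18.6 RPKM (SD, n = 3). Acsl1, the main long-chain synthetase of liver, differed by -0.16 (0.653) and did not pass the test.

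Among the genes for the making, transport and breakdown of coenzyme A, 7 of 15 rose and 1 fell (median 0.42), again 53.3% against 38.5% of all genes. Pank1, a kinase of the first step of coenzyme A synthesis, rose by 0.88 (limma adjusted p = 0.000859), Slc5a6, a carrier of its precursor pantothenate, by 1.20 (0.00776), and Vnn1, a pantetheinase, by 1.20 (0.0032). The peroxisomal hydrolases of coenzyme A parted. Nudt19 rose by 1.98 (limma adjusted p = 0.00105), and Nudt7 fell by 3.07 (0.00653), from 525 ± 19.2 RPKM in Con to 105 ± 130 RPKM in STZ, an SD larger than the STZ mean.

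Among the genes listed here as PPAR-alpha targets outside the family, 17 of 25 tested rose and 1 fell (median 0.87), which is 72.0% called against 38.5% of all genes. Not every gene of this list is known mainly as such a target. Cyp4a14 and Cyp4a10, the omega-hydroxylases, rose by 9.02 (limma adjusted p = 3.94e-05) and 8.31 (1.88e-05), from 0.44 ± 0.208 to 802 ± 358 RPKM and from 2.27 ± 0.852 to 1046 ± 306 RPKM. Cd36, a fatty acid carrier, rose by 2.11 (0.000477), Txnip, a thioredoxin inhibitor, by 2.09 (0.000478), and Angptl4, an inhibitor of lipoprotein lipase, by 1.85 (0.00103). In peroxisomal beta-oxidation 10 of 18 rose and 1 fell (median 0.47), which is 61.1% called against 38.5%. Abcd2, which imports very long acyl-CoA, rose by 2.94 (limma adjusted p = 0.000884), Crat, which passes acyl groups to carnitine, by 1.34 (0.00702), Eci2 by 1.26 (0.000909) and Ehhadh by 1.16 (0.00203), while Scp2, which holds the thiolase of branched chains, fell by 0.99 (0.019).

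After a transplant the group means of the 4 chromosome 12 genes, of Acot12 and of Acot13 lay between those of Con and STZ. Those of Acot8 lay slightly above STZ, and none of the 7 genes passed the test against STZ. In A10-FMT against STZ, 0 of the 7 genes were called (limma), where 0.226% of all genes were called. At an unadjusted p under 0.05 it was 2 of the 7, where 20.9% of all genes passed. Acot1 stood at 7.05, 17.71 and 12.74 RPKM in A10-FMT mice, all below the STZ mice (29.97 to 48.5 RPKM), a mean of 12.5 ± 5.33 RPKM and a log2 difference of -1.52 ± 0.32 (limma adjusted p = 0.0619). Acot2 stood at 3.12, 3.53 and 3.09 RPKM, close together and all below STZ (-1.22 ± 0.31, 0.0829). Acot12 stood at 49.15, 50.75 and 57.85 RPKM, just below the lowest STZ mouse (-0.27 ± 0.14, 0.295). These 3 genes did not overlap between the groups, where 21.5% of all genes did not.

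The peroxisomal Acot3 and Acot4 stayed within the range of STZ. Acot3 stood at 19.94, 8.52 and 18.64 RPKM in A10-FMT, above STZ mouse 3 and below the other STZ mice (-0.93 ± 0.77, limma adjusted p = 0.523). Acot4 stood at 17.78, 13.94 and 15.85 RPKM (-0.41 ± 0.34, 0.526). Acot13, at 84.04, 94.84 and 72.05 RPKM, and Acot8, at 12.16, 12.37 and 13.26 RPKM, differed from STZ by -0.02 (0.966) and 0.05 (0.804). Without STZ mouse 3, 2 of the 7 genes were called in A10-FMT against STZ, Acot1 (-1.30, limma adjusted p = 0.0308) and Acot2 (-1.49, 0.0141), and Acot3 came to -1.90 (0.0561). The share of all genes called rose in the same setting from 0.226% to 12.7%, so the gain was not limited to the thioesterases. With all 6 groups in 1 fit Acot1 was called (adjusted p = 0.0358, limma).

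Con-FMT mice, with content from control donors, also had Acot1 below every STZ mouse. In Con-FMT against STZ 0 of the 7 genes were called (limma), where 0.00943% of all genes were called, and at an unadjusted p under 0.05 it was 5 of the 7, where 20.1% of all genes passed. Acot1 stood at 17.38, 14.13 and 14.26 RPKM, below every STZ mouse (-1.17 ± 0.32, limma adjusted p = 0.102). Acot3 stood at 12.4, 1.84 and 4.42 RPKM, with mouse 1 above the lowest STZ mouse (-2.35 ± 0.77, 0.137). Acot4 stood at 14.45, 7.71 and 9.54 RPKM (-0.99 ± 0.34, 0.151) and Acot2 at 5.98, 2.2 and 2.47 RPKM (-1.22 ± 0.31, 0.0909), and both overlapped STZ through Con-FMT mouse 1 and STZ mouse 3. Acot12, at 59.04, 44.83 and 49.84 RPKM, lay just below STZ (-0.31 ± 0.14, 0.244). Acot13 differed by -0.24 (0.632) and Acot8 by 0.08 (0.685). Without STZ mouse 3, 3 of the 7 genes were called, Acot2 (-1.48, limma adjusted p = 0.0127), Acot3 (-3.32, 0.0062) and Acot4 (-1.40, 0.0109), and the share of all genes called rose from 0.00943% to 15.5%. The STZ libraries are shared by both transplant comparisons.

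The difference between the transplants themselves was also tested. In A10-FMT against Con-FMT 0 of the 7 genes were called (limma), as 0% of all genes were, and 0 of the 7 had an unadjusted p under 0.05, where 2.86% of all genes did. Acot3 and Acot4 had the largest differences, 1.42 ± 0.77 and 0.58 ± 0.34 (limma adjusted p = 0.999 for both), with higher means in A10-FMT and overlapping mice. Acot1 differed by -0.35 ± 0.32 and the others by between -0.03 and 0.22. The smallest difference detectable with 3 mice a group was not computed, so the lack of a call does not show that the transplants were equal.

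Against Con, part of the thioesterases were higher in the transplanted mice. In A10-FMT against Con 4 of the 7 genes were called, all higher, where 18.4% of all genes were called and 15.9% were called higher. Under median-ratio scaling 3 of the 7 were called, and over all genes 665 were called higher (6.27%) and 490 lower, against 1691 and 262 as deposited. They were Acot3 (3.59 ± 0.77, limma adjusted p = 0.0123), Acot4 (1.74 ± 0.34, 0.00902), Acot12 (1.15 ± 0.14, 0.00105) and Acot2 (1.04 ± 0.31, 0.0397). Acot1 did not pass (0.72, 0.131) and its mice overlapped Con. The Acot2 call was lost on leaving out any A10-FMT mouse, Con mouse 1 or Con mouse 3 (limma adjusted p of 0.0913 to 0.155), under each scaling (0.0559 to 0.0721), with no filter (0.105) and with the replicate number as a block (0.055), and the Acot3 call on leaving out A10-FMT mouse 3 (0.0507) or Con mouse 1 (0.0522). Acot4 and Acot12 kept their calls under each of the alternatives run. With only the groups compared in the fit, 6 of the 7 were called, Acot8 (0.0322) and Acot13 (0.0125) being added, where 31.9% of all genes were called. Acot13 was also called with the filter of 1 RPKM in every library (0.0481).

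In Con-FMT against Con 5 of the 7 genes were called, all higher, where 19.4% of all genes were called and 17.5% were called higher. Under median-ratio scaling 1 of the 7 was called, and over all genes 519 were called higher (4.90%) and 347 lower, against 1859 and 200 as deposited. They were Acot12 (1.11 ± 0.14, limma adjusted p = 0.00155), Acot4 (1.16 ± 0.34, 0.038), Acot2 (1.05 ± 0.31, 0.0386), Acot1 (1.07 ± 0.32, 0.0397) and Acot8 (0.31 ± 0.095, 0.0427). Acot3 missed the threshold (2.18 ± 0.77, 0.067), but it was called with a pseudocount of 0.1 (3.67, limma adjusted p = 0.0184), with only the groups compared in the fit (0.0258) and without Con-FMT mouse 2 (0.0432). Acot12 was the only one of the 5 to keep its call under all 3 scalings, where the share of all genes called fell to between 7.77% and 8.38%. The same held on leaving out Con-FMT mouse 1 or 3 or Con mouse 1 or 3, where that share was 5.66% to 9.45%. Both comparisons use the Con libraries that STZ was set against.

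AOS without STZ gave values a little above Con that did not pass the test. In AOS against Con 0 of the 7 genes were called (limma), where 0.00924% of all genes were, and 1 of the 7, Acot12, had an unadjusted p under 0.05, where 7.22% of all genes did. All 7 differences were positive, from 0.12 for Acot8 to 0.63 ± 0.14 for Acot12 (limma adjusted p = 0.285). Acot12 stood at 38.19, 34.8 and 35.5 RPKM, above every Con mouse and below every STZ mouse. Acot3 (0.69 to 1.01 RPKM), Acot4 (6.12 to 6.58 RPKM) and Acot13 (64.79 to 78.72 RPKM) also lay above every Con mouse, so that 4 of the 7 genes did not overlap, where 24.4% of all genes did not.

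Between STZ+AOS and STZ none of the 7 genes passed the test. In STZ+AOS against STZ 0 of the 7 genes were called (limma), as 0% of all genes were, and 0 of the 7 had an unadjusted p under 0.05, where 6.07% of all genes did. The groups overlapped in all 7, where 5.13% of all genes did not overlap. Acot1 stood at 45.4, 39.31 and 63.82 RPKM (0.44 ± 0.30, limma adjusted p = 0.811) and Acot3 at 33.1, 36.38 and 5.95 RPKM (-0.54 ± 0.77, 0.902). Acot2 stood at 8.16, 10.88 and 5.88 RPKM, Acot4 at 17.42, 22.32 and 11.09 RPKM and Acot13 at 75.53, 109.36 and 37.43 RPKM. Mouse 3 was again the highest for Acot1 and the lowest for the other 4, and Acot13 in it lay within the Con range. Without mouse 3 of both groups, an alternative chosen after seeing the data, Acot1 differed by 0.47 (0.744) and Acot3 by -0.72 (0.778), and the count was 0. In STZ+AOS against AOS 5 of the 7 genes were called, all higher, where 37.9% of all genes were called and 31.8% were called higher, and in STZ+AOS against Con it was again 5 of the 7, where 47.3% and 41.2% were. Both counts were 5 under median-ratio scaling too, where 1323 genes were called higher and 1325 lower against AOS, and 1630 higher and 1579 lower against Con. Against Con, Acot13 differed by 0.51 (limma adjusted p = 0.206). Without STZ+AOS mouse 3 it was called as well (0.93, 0.0168).

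In STZ+AOS against AOS the genes called were Acot1 (2.17 ± 0.30, limma adjusted p = 0.000215), Acot2 (1.83 ± 0.31, 0.000734), Acot3 (3.52 ± 0.77, 0.0032), Acot4 (1.23 ± 0.33, 0.00926) and Acot12 (0.74 ± 0.14, 0.0011). Acot13 differed by -0.05 (0.913) and Acot8 by 0.07 (0.71). Whether the STZ difference was smaller on AOS was tested as an interaction. The interaction was called in 0 of the 7 genes (limma), as in 0% of all genes. Its value was below 0 in all 7, but for Acot1 (-0.065) the sign turned under quantile normalization (0.0042) and without STZ mouse 3 (0.16), STZ+AOS mouse 2 (0.083) or Con mouse 1 (0.22). It was largest relative to its error in Acot12 (-0.69 ± 0.19, unadjusted p = 0.00257, limma adjusted p = 0.856), the 1 of the 7 with an unadjusted p under 0.05, where 5.40% of all genes had one.

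The order of the groups differed from gene to gene, and few neighbours in that order were apart. Acot1 ran from Con (7.07 RPKM) through AOS, A10-FMT and Con-FMT (15.3 RPKM) to STZ and STZ+AOS (49.5 RPKM), and only Con-FMT and STZ, as neighbours, did not overlap. Acot3, Acot4 and Acot12 ran from Con through AOS, Con-FMT, A10-FMT and STZ+AOS to STZ, and each was apart at the steps from Con to AOS and from AOS to Con-FMT. Acot2 was apart at the step from AOS (1.61 RPKM) to A10-FMT (3.25 RPKM). Acot13 was apart at the step from Con (48.1 RPKM) to AOS (70.5 RPKM), and its other 4 steps were ratios of 1.02 to 1.13. Acot8 ran from 10.2 RPKM in Con to 12.9 RPKM in Con-FMT, with overlap at every step.

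For each gene the 3 genes outside the family with the most similar log2 level over the 18 libraries were found by Pearson's r among 10815 genes. Differences between the 6 groups enter this r, so it is a description. For Acot3 they were Kyat3 (r = 0.976), Vdac2 (0.966) and Lmo7 (0.964), and for Acot4 Mpc1 (0.976), Rnf14 (0.964) and Stard5 (0.964). Mpc1 is a subunit of the mitochondrial pyruvate carrier and Vdac2 a channel of the outer mitochondrial membrane. For Acot2 they were Pdha1 (0.977), a subunit of pyruvate dehydrogenase, Ctnna1 (0.973) and Slc25a5 (0.972), an ADP/ATP carrier. Acot12 was most like Sft2d2 (0.981), Cyp2c38 (0.975) and Npc1 (0.972), a lysosomal cholesterol transporter. Acot1 was most like Mynn (0.947), Ptch1 (0.943), the hedgehog receptor, and Bach1 (0.927), and Acot8 was most like Mrpl39 (0.924), Bdh1 (0.899), the ketone body enzyme, and Tmco1 (0.882). Acot13 was most like Immp2l (0.945), Grik5 (0.908) and Hjurp (0.908). No gene was in more than 1 of these lists.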

How the data were processed

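Liver RNA of 18 ICR mouse libraries was analysed from 1 table. The deposited values are RPKM, made by the authors per gene and library. By the methods of the study RNA was extracted with TRIzol, enriched with oligo(dT) beads, sequenced on a HiSeq instrument, mapped with SOAPaligner and tested with DEGseq. The submitters' processing notes name Bowtie 0.12.2 and mm10 instead, so the aligner is uncertain.

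Of 19057 gene rows, 10602 that reached 1 RPKM in 3 or more of 12 libraries (Con, STZ, A10-FMT, Con-FMT) and 10822 in the fit of all 18 were kept. Group means of log2(RPKM + 1) were fitted with limma 3.58.1 (eBayes with trend, R 4.3.3), with Benjamini-Hochberg adjustment across every gene tested in a comparison. The pseudocount of 1 understates changes of low genes. The 4-group fit served the first 6 comparisons and the 6-group fit those with AOS. The procedure was tested on simulated data. RPKM hold no read counts, so no count test was run. Alternatives were 3 scalings of the libraries, a pseudocount of 0.1, other filters, no variance trend, other groups in the fit, a replicate block, leaving out each mouse, and Acot1 and Acot2 summed.

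The members, gene lists and tests were chosen with earlier results of these data known. Named were all 7 members, the 3 most similar genes per member, and per list at most 5 called genes with the largest change in STZ against Con. Acot5, Acot6, Acot7, Acot11 and Acsl1 were added with their values known. Positions are from GENCODE M21 and sequences from RefSeq (GRCm38.p6). Tables were read with Python 3.11.15 and pandas 2.3.3.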

Additional observations from a re-analysis of the deposited data

How the results depend on the processing

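Depth limits the low genes most, since Acot3 in Con rests on an estimated 2 to 19 reads per library, Acot5, Acot6 and Acot11 lay under the filter, and reads shared by Acot1 and Acot2 cannot be assigned. Over all comparisons and alternatives, 1179 member values kept their direction and their side of the threshold, 61 lost a call, 13 gained one and 44 changed sign, and each of the 44 was an uncalled difference.

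The number of the 7 genes called in STZ against Con was 4 to 6 under all alternatives, where 4 comes from the filter of 1 RPKM in every library, which leaves out Acot2 and Acot3. With that filter the count was 3 in STZ+AOS against AOS and 3 in STZ+AOS against Con. In A10-FMT against STZ the count was 1 with all 6 groups in 1 fit, and in A10-FMT against Con it was 6 with only the groups compared. In Con-FMT against Con it was 1 with median-ratio scaling, 1 with quantile normalization, 1 with median centring, 1 with no filter and 6 with a pseudocount of 0.1, where 8.17%, 7.77%, 8.38%, 7.62% and 20.1% of all genes were called. Leaving out each mouse in turn gave 0 to 2 in A10-FMT against STZ, 0 to 3 in Con-FMT against STZ (the upper values without STZ mouse 3, where 12.7% and 15.5% of all genes were called), 2 to 4 in A10-FMT against Con and 1 to 5 in Con-FMT against Con. The cause was not tested beyond the libraries and genes left out.

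The labels number the mice 1 to 3 in every group, but no source says that a number marks a shared animal, litter or day. Over 45 pairs of libraries with the same number, deviations from the group means correlated with r of -0.249 to 0.472 (median 0.0315), and 15 pairs were over 0.1. Over the 90 pairs with different numbers the median was -0.0127 and 16 pairs were over 0.1. For each library the mean r with the libraries of each of the 3 numbers in the other groups was taken. It was highest for the library's own number in 9 of the 18 libraries. Not every pair with the same number was over 0.1, and the libraries were treated as unpaired. Asking this of every pair is a rule that is hard to meet, so it cannot exclude that a number marks something shared. With the number as a replicate block the count in Con-FMT against Con was 2 (13.7% of all genes called), and in the other comparisons it stayed within 1 of the value without the block.

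Signs changed as follows. Acot8 came to -0.015, -0.035 and -0.011 in STZ against Con, to -0.16, -0.20 and -0.19 in STZ+AOS against AOS, and to -0.11, -0.16 and -0.12 in STZ+AOS against Con under median-ratio scaling, quantile normalization and median centring. Acot13 in A10-FMT against STZ came to 0.046 and 0.047 under median-ratio scaling and median centring. In A10-FMT against Con-FMT, Acot2 came to 0.012, 0.014 and 0.024 under the 3 scalings and to 0.018 with a pseudocount of 0.1, and Acot8 to 0.0029 under median centring. The interaction for Acot1 came to 0.0042 under quantile normalization. Without mouse 3 of STZ and of STZ+AOS, chosen after seeing the data, Acot8 in STZ+AOS against STZ came to 0.042.

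Leaving out each mouse in turn, Acot13 ranged from -0.34 to 0.26 in A10-FMT against STZ, from -0.56 to 0.036 in Con-FMT against STZ, from -0.66 to 0.10 in STZ+AOS against STZ and from -0.39 to 0.37 in STZ+AOS against AOS. Acot8 ranged from -0.015 to 0.15 in Con-FMT against STZ, from -0.11 to 0.063 in A10-FMT against Con-FMT, from -0.22 to 0.056 in STZ+AOS against STZ and from -0.11 to 0.17 in STZ+AOS against AOS. In A10-FMT against Con-FMT, Acot2 ranged from -0.21 to 0.35 and Acot12 from -0.048 to 0.15. In STZ+AOS against STZ, Acot3 ranged from -1.51 to 0.28, Acot12 from -0.15 to 0.030 and Acot2 from -0.39 to 0.076, and the interaction for Acot1 from -0.30 to 0.22.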
